A study of Mus musculus with 8 samples.

Results

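The genes described here are the 9 genes Foxo1, Foxo3, Pik3cd, Pik3ip1, Akt1, Akt2, Tsc1, Mtor and Rictor, which span the PI3K-AKT-FOXO axis of T cells. They were taken by gene symbol from a count table of 11911 protein-coding genes. All 9 were listed, and all 9 passed the filter on low counts that left 11317 genes for testing. In the test between control and Tdrd3-deleted induced regulatory T cell (iTreg) cultures, 0 of the 9 had an adjusted p under 0.05. That threshold was passed by 0.265% of all tested genes. The 95% confidence intervals of the log2 fold changes of the 9 lay between −0.19 and 0.26. Among 17 known target genes of the FOXO factors, Klf2, Foxp3 and S1pr1 had lower values in the knockout at an unadjusted p under 0.05, and none of the 17 passed the adjusted threshold. Of all tested genes, 4.91% were lower at that unadjusted threshold, and the targets were chosen with earlier results for Klf2 and Foxp3 known.

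The series compared 4 libraries labelled WT with 4 labelled KO, made from total RNA depleted of ribosomal RNA. Per the study's methods, the WT mice carried Foxp3YFP-Cre and the KO mice carried Foxp3YFP-Cre with floxed Tdrd3 alleles, so that both genotypes expressed Cre from the Foxp3 locus. Naive CD4+ T cells from the spleen were cultured for 36 h with TGF-β and antibodies to CD3 and CD28, while antibodies to IL-4 and IFNγ blocked these cytokines. Cre can delete Tdrd3 only in cells that have begun to transcribe Foxp3, the methods name no sort of YFP+ cells before RNA was taken, and the age of the mice used for RNA is not given in the sources used here. In such bulk cultures, fewer cells that express a gene and less RNA per cell cannot be told apart.

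Phosphoinositide 3-kinase (PI3K) is switched on by the T cell receptor, CD28 and cytokine receptors, and makes a membrane lipid that recruits the kinase AKT. AKT phosphorylates FOXO1 and FOXO3, which then leave the nucleus, and it relieves the block that the TSC complex places on mTOR complex 1. FOXO factors are known to sustain genes of lymphocyte homing and to promote Foxp3, and strong PI3K, AKT or mTOR activity is known to oppose iTreg induction. Much of this regulation is by phosphorylation and by location in the cell, which RNA counts do not measure.

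Total counts ranged from 13258239 to 16001676 per library, and expression values are in CPM, which put all libraries on a common total by TMM normalization. Tdrd3 itself was 18.8, 15.1, 9.95 and 17.7 CPM in WT replicates 1 to 4 and 13.7, 10.7, 12.9 and 11.1 in KO replicates 1 to 4, so the library labelled WT replicate 3 lay below every KO library. Its log2 fold change, KO over WT, was −0.35 ± 0.155 (SE), with an edgeR adjusted p of 0.496, and the counts do not show the floxed exons separately. The 6 T cell markers (Cd3e, Cd3d, Cd3g, Cd4, Cd28 and Lck) were all detected, with a sum of 1694 to 1795 CPM in WT and 1662 to 1742 CPM in KO. Of the markers of B, myeloid, NK, dendritic and erythroid cells, 5 of 19 were listed, and none of these lists summed to more than 3.12 CPM in a library. Cd8a and Cd8b1 together reached 21.8 CPM in WT replicate 3 and 6.68 to 9.93 CPM in the other 7 libraries.

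Foxo1 and Foxo3 encode the transcription factors at the end of the axis. Foxo1 (ENSMUSG00000044167) lies at chr3:52175757-52260642 of GRCm39 on the plus strand. It had 229.1, 234.1, 210.4 and 228.7 CPM in WT replicates 1 to 4 and 231.2, 224.6, 224.7 and 235.0 CPM in KO replicates 1 to 4. The genotypes overlapped, and WT replicate 3 was the lowest of the 8 libraries. WT averaged 225.6 ± 10.4 CPM (SD, n = 4) and KO 228.9 ± 5.09 CPM (SD, n = 4). The log2 fold change was 0.021 ± 0.0421 (SE), with a 95% confidence interval from −0.067 to 0.11 and an adjusted p of 0.935. On the linear scale, the interval ran from 0.955-fold to 1.08-fold.

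Foxo3 (ENSMUSG00000048756) lies at chr10:42057837-42152751 on the minus strand. It had 89.7, 94.3, 91.5 and 104.8 CPM in WT replicates 1 to 4 and 92.5, 93.5, 92.5 and 86.9 CPM in KO replicates 1 to 4. WT replicate 4 was the highest library and KO replicate 4 the lowest, and the other 6 were intermixed. Its log2 fold change was −0.057 ± 0.0541 (SE), the interval −0.17 to 0.056 and the adjusted p 0.843.

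Pik3cd encodes the delta catalytic subunit of PI3K, the main catalytic form in lymphocytes. It (ENSMUSG00000039936) lies at chr4:149733625-149787028 on the minus strand. It had 535.6, 551.1, 491.9 and 537.2 CPM in WT replicates 1 to 4 and 517.6, 523.1, 540.9 and 499.7 CPM in KO replicates 1 to 4. As for Foxo1, WT replicate 3 was the lowest of the 8, and the genotypes overlapped. For Pik3cd, the log2 fold change was −0.024 ± 0.0411 (SE), with an interval from −0.11 to 0.062 and an adjusted p of 0.921.

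Pik3ip1 encodes a transmembrane inhibitor of PI3K that is known to be high in resting T cells. It (ENSMUSG00000034614) lies at chr11:3280401-3292971 on the plus strand. Its CPM was 12.87, 13.39, 13.04 and 12.04 in WT replicates 1 to 4 and 13.7, 12.1, 14.2 and 13.2 in KO replicates 1 to 4. The inhibitor was the least abundant of the 9 genes, with 170 to 194 estimated counts in a library, and its interval was the widest. For the inhibitor, the log2 fold change was 0.049 ± 0.103 (SE), with an interval from −0.17 to 0.26, or 0.891-fold to 1.20-fold, and an adjusted p of 0.937.

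The AKT kinases showed the smallest differences. Akt1 (ENSMUSG00000001729), at chr12:112620255-112641318 on the minus strand, had 233.9, 244.7, 242.9 and 247.2 CPM in WT replicates 1 to 4 and 249.7, 244.1, 234.8 and 247.5 CPM in KO replicates 1 to 4. Akt2 (ENSMUSG00000004056), at chr7:27290977-27340251 on the plus strand, had 115.6, 131.8, 120.6 and 123.9 CPM in WT and 127.2, 123.2, 115.9 and 121.7 CPM in KO replicates 1 to 4. For both kinases the lowest library was WT replicate 1, and the KO values lay within or close to the WT range. The log2 fold change was 0.011 ± 0.0391 (SE) for Akt1, with an interval from −0.071 to 0.093 and an adjusted p of 0.958. For Akt2 it was −0.011 ± 0.0490 (SE), with an interval from −0.11 to 0.091 and an adjusted p of 0.964.

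Tsc1, Mtor and Rictor connect AKT with the mTOR kinase. Tsc1 (ENSMUSG00000026812), at chr2:28531240-28581179 on the plus strand, encodes a subunit of the complex that restrains mTOR complex 1. It had 59.2, 56.0, 59.1 and 61.9 CPM in WT replicates 1 to 4 and 57.7, 57.6, 61.8 and 56.9 CPM in KO replicates 1 to 4. The groups overlapped, and KO replicate 3 stood above the other KO libraries. Tsc1 had a log2 fold change of −0.014 ± 0.0563 (SE), with an interval from −0.13 to 0.10 and an adjusted p of 0.961.

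Mtor (ENSMUSG00000028991), at chr4:148533068-148642140 on the plus strand, encodes the kinase shared by both mTOR complexes. It had 109.7, 123.7, 115.6 and 117.5 CPM in WT replicates 1 to 4 and 112.8, 110.1, 117.2 and 122.4 CPM in KO replicates 1 to 4. Each KO value lay inside the WT range. The log2 fold change was −0.012 ± 0.0497 (SE), with an interval from −0.12 to 0.092 and an adjusted p of 0.963.

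Rictor encodes the defining subunit of mTOR complex 2, which phosphorylates AKT. It (ENSMUSG00000050310) lies at chr15:6737860-6829882 on the plus strand. It had 120.1, 114.6, 106.3 and 119.0 CPM in WT replicates 1 to 4 and 100.8, 111.6, 110.8 and 109.7 CPM in KO replicates 1 to 4. Rictor had the largest difference of the 9: 3 WT libraries lay above all 4 KO libraries, and WT replicate 3 lay below 3 of them. WT averaged 115.0 ± 6.29 CPM (SD, n = 4) and KO 108.2 ± 5.03 CPM (SD, n = 4). The log2 fold change was −0.087 ± 0.0510 (SE), the interval −0.19 to 0.020, and the adjusted p 0.670. Without WT replicate 3 the log2 fold change of Rictor was −0.12, and its edgeR adjusted p was 0.410 (0.0235 before adjustment). Without KO replicate 1 it was −0.055, with an adjusted p of 0.959.

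**Figure D1:**
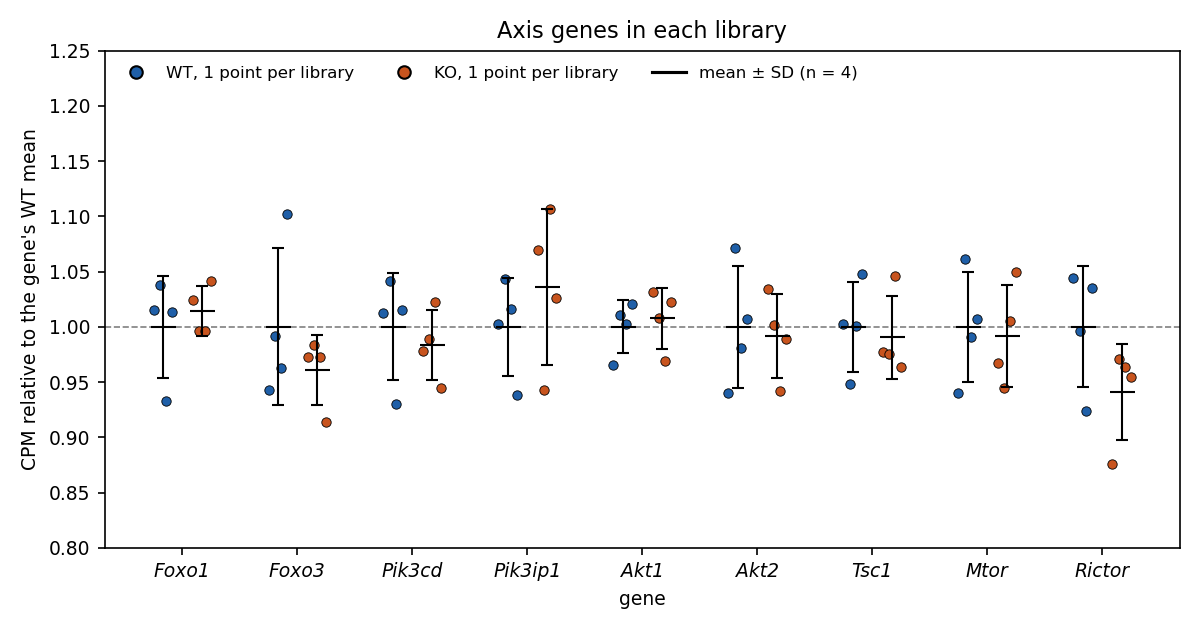
CPM of each of the 9 axis genes in each library, divided by the gene's WT mean (vertical axis, no unit), for the 4 WT libraries (blue) and the 4 KO libraries (orange), with mean ± SD. The colours overlap for every gene, and the lowest point is Rictor in KO replicate 1, at 100.8 CPM.

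Counted over the 9 genes, edgeR's quasi-likelihood test called 0 at an adjusted p under 0.05, where 0.265% of all tested genes were called. It called 0 at an unadjusted p under 0.05, where the share of all tested genes was 9.30%. In 0 of the 9 did the 4 libraries of one genotype lie on one side of the other 4, which was so for 4.89% of all tested genes. DESeq2 called 0 of the 9 at both thresholds, where it called 0.716% of all genes after adjustment and 8.28% before. limma voom, which called 0.839% of all genes after adjustment, called 0 of the 9 adjusted and 1, Rictor, unadjusted, where it called 11.8% of all genes. Exact two-sided permutation tests on log2(CPM + 0.5) gave p from 0.171 for Rictor to 0.857 for Akt2, where 0.0286 is the smallest value that 4 against 4 libraries allow.

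The log2 fold changes of the 9 genes had a median of −0.012, against 0.0013 over all tested genes, with 3 above and 6 below 0. Their median absolute value was 0.021, against 0.063 over all tested genes, and 37.7% of tested genes had a larger absolute log2 fold change than Rictor. Their standard errors ranged from 0.0391 to 0.103, with a median of 0.0497 against 0.0738 over all genes. The CPM of the 9 genes summed to 1451 to 1564 in the WT and 1493 to 1513 in the KO libraries, with both WT extremes outside the KO range.

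Levels were compared between genes only after division by exon length. In WT cultures, Pik3cd had 60.7 ± 2.94 CPM per kb (SD, n = 4), Akt1 30.9 ± 0.743, Foxo1 24.3 ± 1.12, and Mtor 11.1 ± 0.553. Foxo3 had 10.3 ± 0.732 CPM per kb, Akt2 9.50 ± 0.525, Rictor 6.76 ± 0.370, Tsc1 4.08 ± 0.166 and Pik3ip1 2.46 ± 0.109. Over all 8 libraries, the ranges of Mtor and Foxo3, and of Foxo3 and Akt2, overlapped, so their order cannot be read, and no other neighbours in this order overlapped. The order was the same in KO cultures, from 59.7 ± 1.95 CPM per kb for Pik3cd to 2.55 ± 0.173 for Pik3ip1.

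**Figure D2:**
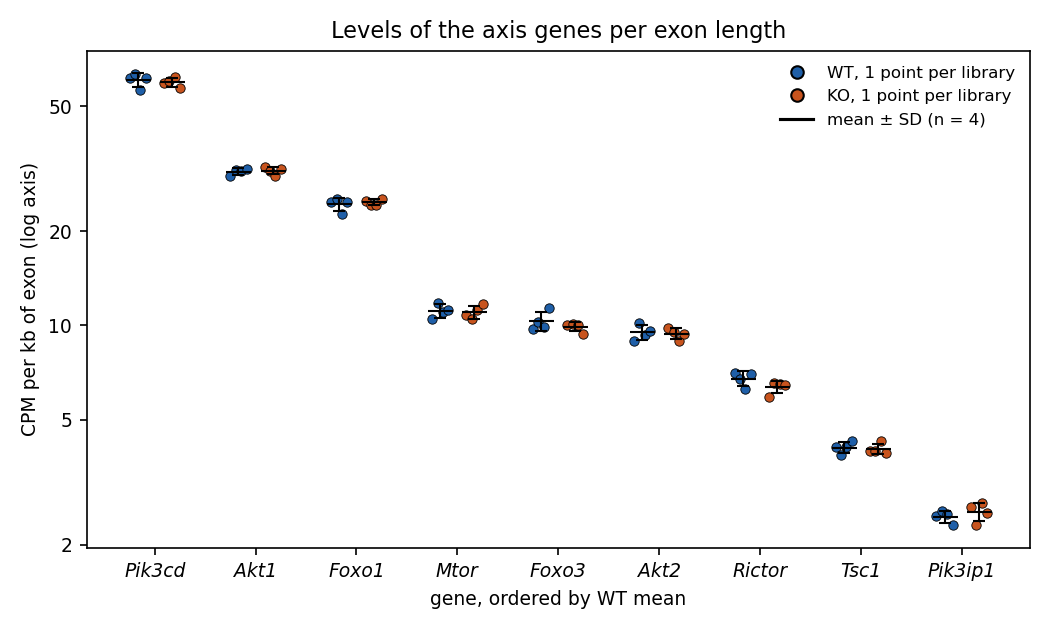
CPM per kb of exon (vertical log axis) of the 9 genes, ordered by their WT mean, in the 4 WT (blue) and 4 KO (orange) libraries with mean ± SD. Levels run from about 60.7 for Pik3cd to 2.46 for Pik3ip1 in WT, and within a gene the 8 libraries lie close together.

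Within a gene, the 8 libraries differed little. The coefficient of variation over all 8 was lowest for Akt1, at 2.40%, and highest for Rictor, at 5.73%, and the highest library was 1.07 to 1.21 times the lowest. Ratios between related genes were compared next, per kb. The ratio of Foxo1 to Foxo3 was 2.37 ± 0.169 in WT and 2.50 ± 0.136 in KO (SD, n = 4; exact permutation p = 0.286), and that of Akt1 to Akt2 was 3.26 ± 0.129 and 3.31 ± 0.0565 (exact permutation p = 0.686). The inhibitor Pik3ip1 stood at 0.0406 ± 0.00281 of Pik3cd in WT and 0.0426 ± 0.00272 in KO (exact permutation p = 0.343), and Rictor at 0.610 ± 0.0512 and 0.578 ± 0.0347 of Mtor (exact permutation p = 0.314). None of these 4 ratios differed beyond the spread of the libraries, with Benjamini-Hochberg adjusted p of 0.457 to 0.686 over the 4.

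Some of these counts may include reads from overlapping genes, since whether reads were assigned by strand is not stated in the sources used here. In the GENCODE M39 annotation, exons of Akt1 overlap those of Siva1 on the opposite strand over 3340 bp, and exons of Pik3cd overlap those of Clstn1 on the opposite strand over 1244 bp. Exons of Pik3ip1 overlap those of the opposite-strand noncoding genes Gm74265 and Gm12592 over 774 and 470 bp. Foxp3, one of the FOXO targets below, shares 590 bp with Ccdc22 on the opposite strand. It also shares 853 bp with the noncoding gene Flicr on its own strand, which assignment by strand would not separate. The estimated counts of Pik3cd, Akt1 and Akt2 were fractional in all 8 libraries, and those of Foxo1, Foxo3, Tsc1, Mtor and Rictor were whole in all 8.

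The sequence GTAAACA, a core motif of FOXO factors, was searched on both strands in RefSeq promoter windows that run from 250 bases before to 50 bases after a start. The windows come from RefSeq on GRCm38.p6, and those of these genes matched GRCm39 exactly once. Of 15 windows of the 9 genes, 1 held the motif, an Akt1 window, against 1199 of 32851 windows of all genes (3.65%). Of the FOXO target genes used below, 13 of 17 had windows, and 2 of their 16 windows held it: 1 of Bcl2l11, which encodes the death-promoting protein BIM, and 1 of Sesn1, 23 bases after the start. The single windows of Foxo1, Foxo3 and Klf2 did not hold these letters, which says nothing of binding elsewhere. The Akt1 match lies 161 bases before the start. With the flanking bases printed below, it spans chr12:112641453-112641499 of GRCm39, inside the longer span that GENCODE M39 gives Akt1. The Bcl2l11 match lies 227 bases before the start, and with its flanking bases it spans chr2:127967711-127967757. The Akt1 and Bcl2l11 matches are shown 5′ to 3′ on the gene's strand with 20 bases on either side, with the motif or its reverse complement in capitals.
Akt1: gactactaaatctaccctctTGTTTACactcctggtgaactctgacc
Bcl2l11: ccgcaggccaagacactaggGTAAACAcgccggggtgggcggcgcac

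The RNA of genes that FOXO factors are known to control was examined next. Of 17 genes known as targets of FOXO factors in T cells or other cells, edgeR called 0 at an adjusted p under 0.05 (0.265% of all tested genes). At an unadjusted p under 0.05 it called 3, all 3 lower in KO. The 3 are 17.6% of the list, where 4.91% of all tested genes were lower at that threshold. DESeq2 called 1 of the 17 (S1pr1) at an adjusted p under 0.05, and limma voom called 3, where they called 0.716% and 0.839% of all tested genes. With edgeR, 3 were called without WT replicate 4, 3 without KO replicate 2 and 1, Klf2, without KO replicate 3, settings that called 0.789%, 1.42% and 0.166% of all genes. These targets were chosen with earlier results for Klf2 and Foxp3 known, so their count is a description of the list.

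Klf2 encodes a transcription factor of quiescent T cells that is itself known to drive S1pr1. In WT replicates 1 to 4 Klf2 had 51.2, 58.9, 63.0 and 54.6 CPM. In KO replicates 1 to 4 it had 22.2, 45.3, 44.3 and 24.4 CPM, without overlap. The means were 56.9 ± 5.13 CPM in WT and 34.0 ± 12.4 CPM in KO (SD, n = 4). The log2 fold change was −0.74 ± 0.161 (SE) with an edgeR adjusted p of 0.0617, so Klf2 did not pass the adjusted threshold. With DESeq2 its adjusted p was 0.245. S1pr1 encodes the receptor that guides egress from lymphoid tissue. It had 57.7, 58.6, 57.5 and 51.4 CPM in WT replicates 1 to 4 and 46.0, 47.1, 48.3 and 45.5 CPM in KO replicates 1 to 4. Every KO library lay below every WT library, with a log2 fold change of −0.27 ± 0.0600 (SE) and an adjusted p of 0.0671. Among all 17 targets, S1pr1 and Klf2 alone did not overlap between the genotypes (11.8% of the list, against 4.89% of all tested genes).

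Foxp3, the regulator that defines Tregs, had means of 109.9 ± 12.5 and 88.4 ± 13.3 CPM (SD, n = 4), and KO replicates 1 and 4 were the lowest. Its log2 fold change was −0.31 ± 0.0880 (SE), with an adjusted p of 0.152. Without KO replicates 1 and 4, the log2 fold changes were −0.35 for Klf2, −0.15 for Foxp3 and −0.24 for S1pr1. In that fit the edgeR adjusted p was 0.661 for Klf2 and 0.9998 for S1pr1, and 0 of the FOXO targets passed the adjusted threshold.

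**Figure D3:**
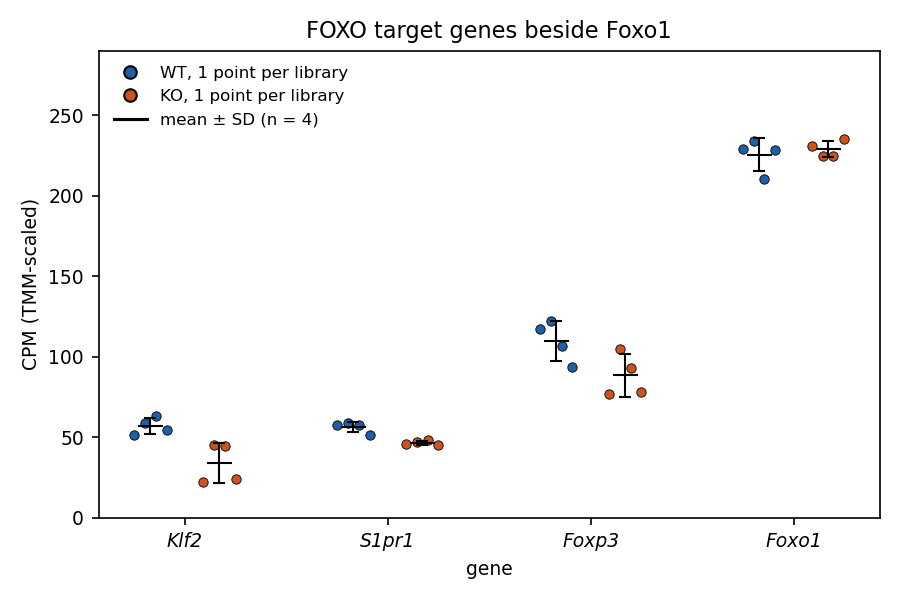
CPM (vertical axis, from 0) of Klf2, S1pr1, Foxp3 and Foxo1 in the 4 WT (blue) and 4 KO (orange) libraries with mean ± SD. For Klf2 and S1pr1 the 4 KO points lie below the 4 WT points, Foxp3 overlaps, and Foxo1 lies at 210.4 to 235.0 CPM in both genotypes.

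The other 14 targets had log2 fold changes from −0.061 to 0.21, and their smallest unadjusted p was 0.0777. Il7r, the receptor subunit for the survival cytokine IL-7, was highest in KO replicates 4 and 1, at 24.2 and 22.0 CPM against 15.7 to 19.0 CPM in WT, with a log2 fold change of 0.21 and an adjusted p of 0.614. Ccr7, a homing receptor to lymph nodes, had a log2 fold change of −0.053 (adjusted p = 0.879) and Ctla4, an inhibitory receptor of Tregs, one of 0.061 (adjusted p = 0.736). The targets better known for cell cycle arrest, death and metabolism, which include Cdkn1b (−0.0030), Ccng2 (−0.029), Bcl2l11 (−0.049), Gadd45a (−0.012), Irs2 (−0.017), Insr (−0.0068) and Fbxo32 (−0.061), gave log2 fold changes close to 0. So did the antioxidant enzymes Sod2 (0.032) and Cat (0.029), while the sestrins Sesn1 and Sesn3 had −0.022 and 0.065.

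Of the 5 Treg markers, Foxp3, Il2ra and Ikzf2 were lower in KO at an unadjusted p under 0.05 (4.91% of all tested genes were), Tnfrsf18 had a log2 fold change of −0.059 (adjusted p = 0.824), and Ctla4, like Foxp3 also one of the FOXO targets, lay on the other side of 0. The 5 summed to 3339 to 3491 CPM in WT and 3147 to 3259 CPM in KO, without overlap. Most of this sum is Il2ra, with means of 2268 CPM in WT and 2076 CPM in KO. Il2ra was the 1 marker of the 5 whose genotypes did not overlap, which was so for 4.89% of all tested genes. The T cell marker sum overlapped between genotypes. The part of the marker levels in the lower values of Klf2, S1pr1 and Foxp3 was not tested.

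**Figure D4:**
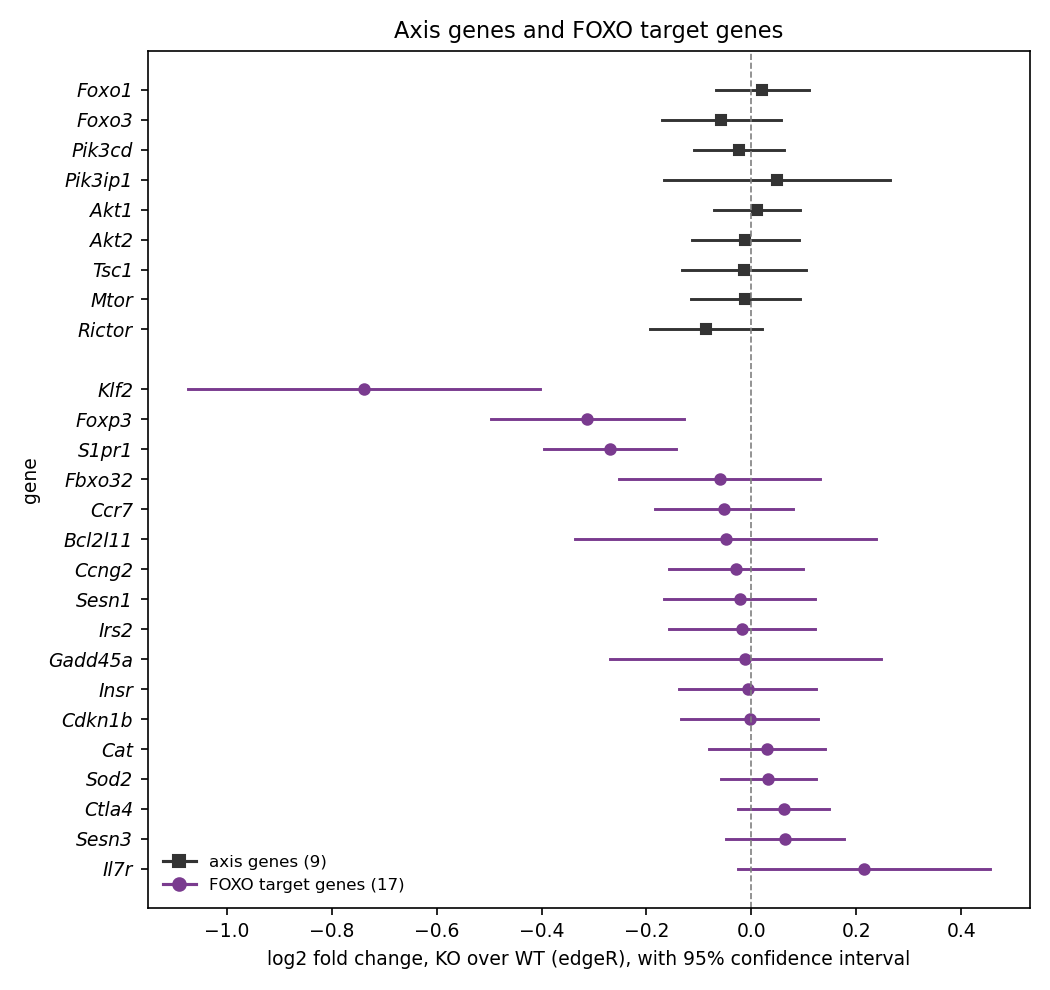
Log2 fold change, KO over WT, from edgeR (horizontal axis) with its 95% confidence interval (lines) for the 9 axis genes (squares) and the 17 FOXO target genes (circles). All 9 axis intervals include 0, and the intervals of Klf2, Foxp3 and S1pr1 lie below 0.

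A wider list of 71 other genes of the pathway was examined by role, of which 69 were listed and tested. edgeR called 0 of the 69 at an adjusted p under 0.05 (0.265% of all tested genes). At an unadjusted p under 0.05 it called 9, with 3 higher and 6 lower in KO (4.38% and 4.91% of all tested genes). The 9 are 13% of the list, against 9.30% of all tested genes. DESeq2 and limma voom each called 0 at an adjusted p under 0.05, against 0.716% and 0.839% of all tested genes. They called 7 and 9 unadjusted, against 8.28% and 11.8% of all tested genes. The median log2 fold change of the list was −0.014, and in 7 of the 69 (10.1%, against 4.89% of all tested genes) the genotypes did not overlap.

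The 7 phosphatases that oppose the pathway had the lowest class median, −0.10, and 2 of them were lower at an unadjusted p under 0.05, as were 4.91% of all tested genes. Inpp4b, which removes a phosphate from a lipid of the PI3K pathway, had 368.2, 363.4, 376.4 and 373.1 CPM in WT replicates 1 to 4 and 320.2, 356.8, 339.8 and 328.2 CPM in KO replicates 1 to 4. All KO libraries lay below all WT libraries, with a log2 fold change of −0.14 ± 0.0401 (SE) and an adjusted p of 0.171.

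Eif4ebp1, a translation repressor that mTOR complex 1 inactivates, had the smallest unadjusted p of the list. It had 75.4, 78.9, 81.2 and 80.5 CPM in WT replicates 1 to 4 and 97.3, 84.6, 92.6 and 88.0 CPM in KO replicates 1 to 4. All KO libraries lay above all WT libraries, with a log2 fold change of 0.20 ± 0.0536 (SE) and an adjusted p of 0.146. Without KO replicate 2, Inpp4b (adjusted p = 0.0466) and Eif4ebp1 (0.0491) passed the adjusted threshold, which 1.42% of all genes then passed, and no other gene of the 69 did. The related Eif4ebp2, the most abundant gene of its class, had 415.3 ± 13.6 CPM in WT and 411.2 ± 7.97 CPM in KO (SD, n = 4), with an adjusted p of 0.948.

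**Figure D5:**
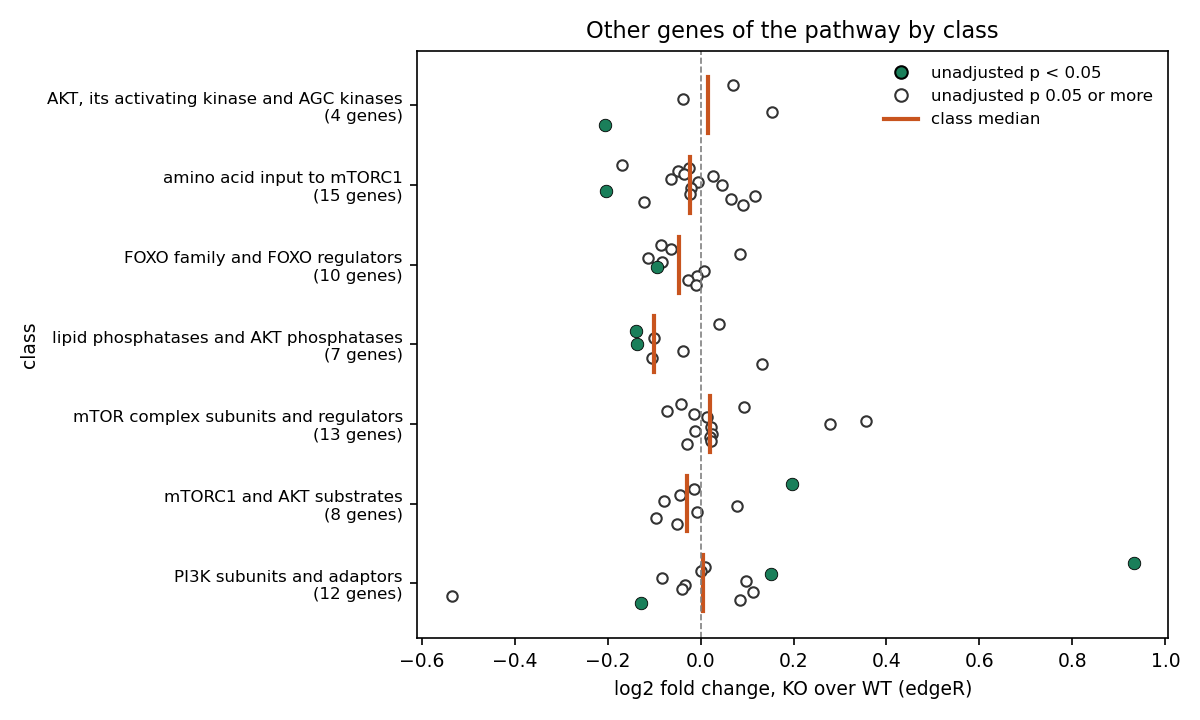
Log2 fold change, KO over WT (horizontal axis), of the 69 other pathway genes grouped by class (vertical axis), with filled circles for an unadjusted p under 0.05, open circles for the others and an orange line for the class median. The phosphatases have the lowest median, −0.10, and the point farthest to the right is Pik3ap1, at 0.93.

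Among the 12 PI3K subunits and adaptors, Pik3ap1, an adaptor best known from B cells and myeloid cells, had the smallest unadjusted p. It was 1.71, 1.24, 1.47 and 0.850 CPM in WT replicates 1 to 4 and 3.99, 0.940, 2.33 and 2.92 CPM in KO replicates 1 to 4, with a log2 fold change of 0.93 ± 0.372 (SE) and an adjusted p of 0.422. Its counts were low, 12 to 55 a library, and the groups overlapped, with KO replicate 2 among the lowest. The most abundant of these 12, which leave out Pik3cd, was the regulatory subunit Pik3r1. Its mean was 356.6 ± 3.84 CPM in WT and 346.9 ± 7.69 CPM in KO (SD, n = 4), with an adjusted p of 0.838.

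Of the 4 kinases around AKT, Sgk3, a related lipid-regulated kinase, lay below every WT library in all 4 KO libraries, at 14.9 to 17.9 against 18.3 to 20.8 CPM (log2 fold change −0.21, adjusted p = 0.499). Pdpk1, the kinase that activates AKT, had a log2 fold change of −0.037 (adjusted p = 0.873). Of the 13 mTOR complex subunits and regulators, 0 had an unadjusted p under 0.05, against 9.30% of all tested genes. Ddit4, an inhibitor of mTOR complex 1, came closest with a log2 fold change of 0.092 (adjusted p = 0.600).

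Of the 15 genes of amino acid input to mTOR complex 1, Rragd, a small GTPase of the lysosome, had 68.4 ± 4.62 CPM in WT and 59.3 ± 5.28 CPM in KO (SD, n = 4; log2 fold change −0.20, adjusted p = 0.277), and the groups overlapped. Sesn3, which had the highest CPM of the 15 without division by exon length, is given above. Of the 10 other FOXO family genes and FOXO regulators, Stk4, the kinase MST1 that phosphorylates FOXO factors, had 367.4 to 385.6 CPM in WT and 338.7 to 359.1 CPM in KO without overlap (log2 fold change −0.093, adjusted p = 0.422). Ywhaz, an adaptor that binds phosphorylated FOXO proteins, had a log2 fold change of −0.0090 (adjusted p = 0.967).

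The genes whose pattern over the 8 libraries was most like that of Foxo1 were Plagl1, Adnp2 and Npas2. Their mean absolute differences in z-scored log2 CPM were 0.181, 0.202 and 0.202, where the median over all tested genes was 1.07. Those most like Pik3ip1 were Tonsl, Sh3pxd2b and Mipol1, with 0.192, 0.207 and 0.226 against a median of 1.10. All 6 had an adjusted p above 0.05 between the genotypes. The likeness is over 8 libraries only, and within a library all genes share its culture and depth.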

How the data were processed

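Per the labels and the study's methods, the authors aligned reads with STAR (2.7.8a) to GRCm39, quantified genes in Partek Flow by expectation maximization, which divides reads that match several genes, and used DESeq2. The deposited table holds these estimated counts, not normalized, for 11911 genes, and 29.6% of values are not whole (tolerance 0.01). Strandedness and annotation release are not given in the sources used here. Of the authors' gene identifiers, 11910 are in GENCODE M39, which gave exon lengths. The labels give 4 libraries per genotype, all of them used, whereas the methods describe 3 biological replicates per group from separate mice. How the 4 libraries relate to those mice is not stated, so p-values measure only the spread between libraries.

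Estimated counts were rounded, filtered with filterByExpr (minimum count 10, leaving out 594 genes), scaled by TMM (factors 0.993 to 1.00) and tested for genotype with edgeR's quasi-likelihood test (edgeR 4.0.16, R 4.3.3), two-sided, with Benjamini-Hochberg adjustment over 11317 genes. In a library, 3 counts correspond to 0.188 to 0.225 CPM. The 9 members, Tdrd3 and the 4 ratios also had exact permutation tests, and the other genes did not. No pair of libraries of a genotype held copies of the same counts (chi-square per degree of freedom 2.59 to 6.18). The closest pairs were WT replicates 1 and 2 (2.69) and KO replicates 1 and 4 (2.59). Other pairs had 4.87 to 6.18 in WT and 3.73 to 4.79 in KO. Whether a close pair came from the same mouse was not tested. The fits were tested on simulated data. Alternatives were DESeq2 1.42.0, limma voom (limma 3.58.1), other scalings and filters, unrounded counts, a replicate block, and leaving out libraries. Members and lists were chosen with earlier results of these data known, and some genes of the lists are not reported here. The genes named are the 9 members and Tdrd3, the FOXO targets, the pathway genes past the adjusted threshold, in each pathway class the gene of smallest p and that of highest CPM, and the 3 genes most like Foxo1 and Pik3ip1.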

Additional observations from a re-analysis of the deposited data

Results flagged for a closer look

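For each of the 9 genes and each genotype, the gap between the highest or lowest library and its nearest neighbour was divided by the range of the 4 libraries. This ratio was compared with Dixon's critical value for 4 libraries, and 2 libraries lay beyond it. Foxo3 in KO replicate 4, at 86.9 CPM, stood below the other KO libraries at 92.5 to 93.5 CPM. Tsc1 in KO replicate 3, at 61.8 CPM, stood above the other KO libraries at 56.9 to 57.7 CPM. With 18 such groups examined, chance marks about 1 in 20.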

How the results depend on the processing

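In all 17 alternatives 0 of the 9 members passed an adjusted p of 0.05, and their lowest adjusted p was 0.410, for Rictor without WT replicate 3. The direction of Foxo3, Pik3ip1 and Rictor was the same in all 17, and that of the other 6, whose differences are close to 0, changed in some. Without KO replicates 1 and 4 the log2 fold changes with the opposite sign were −0.0061 for Foxo1, 0.0076 for Pik3cd, −0.017 for Akt1, 0.014 for Tsc1, −0.023 for Il7r, 0.21 for Bcl2l11, 0.073 for Cdkn1b, 0.050 for Ccng2, 0.053 for Sesn1, −0.050 for Sesn3 and 0.090 for Gadd45a. With limma voom they were 0.00045 for Akt2, 0.0012 for Mtor and 0.0059 for Ywhaz. Leaving out 1 library at a time gave log2 fold changes of −0.011 to 0.039 for Foxo1, −0.0061 to 0.029 for Akt1, −0.041 to 0.023 for Akt2, −0.041 to 0.0077 for Tsc1, −0.041 to 0.017 for Mtor, −0.057 to −0.0038 for Pik3cd, −0.085 to −0.0085 for Foxo3 (nearest 0 without WT replicate 4), 0.017 to 0.092 for Pik3ip1 (nearest 0 without KO replicate 3) and −0.12 to −0.055 for Rictor (nearest 0 without KO replicate 1). The same ranges were −0.20 to 0.052 for Bcl2l11, −0.060 to 0.031 for Cdkn1b, −0.085 to 0.014 for Ccng2, −0.066 to 0.015 for Sesn1, −0.070 to 0.021 for Irs2, −0.027 to 0.039 for Insr, −0.075 to 0.032 for Gadd45a, −0.013 to 0.057 for Cat, −0.035 to 0.00042 for Eif4ebp2 and −0.047 to 0.013 for Ywhaz. The cause of these changes was not tested.

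Over all genes, edgeR called 30, against 81 with DESeq2, 95 with limma voom, 87 with the replicate block, 3 without KO replicates 1 and 4, and 6 (without KO replicate 1) to 162 (without KO replicate 2) when 1 library was left out. Of the FOXO targets, 1 was called with DESeq2, 3 with limma voom, 2 with the replicate block (Klf2 and Foxp3) and 0 to 3 without 1 library, with 3 called without WT replicate 4 and without KO replicate 2. Of the pathway list, 0 to 2 were called without 1 library, with 2 called without KO replicate 2. Same-numbered libraries had correlations of −0.046 to 0.069 in their deviations from the group means. By this measure, 0 of the 4 WT libraries was closest to the KO library of its own number, so it showed no pairing by number. Whether same-numbered libraries were cultured or prepared together was not tested. Depth limits Pik3ip1, with 170 to 194 counts a library, and Pik3ap1, with 12 to 55.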
